A study of Homo sapiens with 12 samples.

Results

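The genes described here are 39 human factors, nearly all of which keep chromatin and retroelements silent. They were chosen by name from a list of factors for DNA methylation, methylation of histone H3 at lysines 9 and 27, the HUSH complex and histone deacetylation. All 39 matched 1 gene identifier each among the 60669 in the table of counts, and all 39 were among the 16393 genes with enough counts to be tested. Of the 39, 1 gene is of the opposite kind, KMT2D, which writes the activating mark H3K4 methylation. For short, all 39 are called silencing genes below, and counts of silencing genes include KMT2D.

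Polyadenylated RNA was counted per gene in HT1080, a human fibrosarcoma cell line. Every library came from cells with a stable dCas9 of the CRISPRi type, which binds DNA without cutting it, grown under blasticidin and puromycin selection. One line, genotype dCas9_CRISPRi_LTR8B.SP140, carried a guide against LTR8B, a retroviral long terminal repeat that lies in the gene SP140, and is called LTR8B cells below. Its control line, genotype dCas9_CRISPRi_GFP, carried a guide against GFP and is called GFP cells. Either line was left without treatment or given IFNB (interferon beta) for 4 h at 10 U/mL, which made 4 groups: LTR8B IFNB with 4 libraries, LTR8B untreated with 4, GFP IFNB with 2 and GFP untreated with 2. Each guide is represented by 1 line, so effects of the guide and of the line cannot be told apart, and in bulk RNA fewer cells with a transcript and less transcript per cell cannot be told apart either. The labels do not say that replicates were separate cultures, so p-values reflect only how far these libraries spread.

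As background, cytosine methylation is copied at replication by DNMT1 with UHRF1 and is placed on new sites by DNMT3A and DNMT3B. KRAB zinc-finger proteins that recognise retroelement DNA bring in TRIM28, which recruits the H3K9 methyltransferase SETDB1, and HP1 proteins bind the resulting mark. The HUSH complex extends that silencing over young retroelements, and Polycomb complexes silence developmental genes through H3K27 methylation and H2A ubiquitylation. Loss of such factors in cultured cells is known to release endogenous retroviral transcripts, whose double-stranded RNA can itself start an interferon response.

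Total counts per library ran from 12404270 to 28801579. SP140, the targeted gene, was at 0.515 to 1.84 CPM (counts per 1e+06 counts, scaled by TMM library factors) in LTR8B cells, against 29.8 to 32.0 CPM in GFP cells, as the labels say. The 10 interferon-response genes used as a check of treatment summed to 7258 to 9042 CPM with IFNB, against 63.5 to 73.6 CPM in untreated libraries. Of 13 mesenchymal markers, 10 had a mean of at least 1 CPM, and their sum lay between 4496 and 5308 CPM, most of it VIM; LUM and THY1 stayed under 0.19 CPM and COL1A2 under 0.91 CPM. The 6 epithelial markers summed to at most 0.669 CPM and the 6 haematopoietic markers to at most 1.46 CPM. Of the 4 neural markers, MAP2 was at 17.4 to 22.5 CPM with IFNB and 8.84 to 10.5 CPM without it, and the part of this movement in the results below was not tested. Proliferation markers summed to 1487 to 1645 CPM.

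The silencing genes were expressed at moderate to high levels in every library, and little in their levels separated the groups. Their mean level was 10.96 CPM for the lowest, DNMT3A, and 541.8 CPM for the highest, TRIM28, with a median of 56.9 CPM, against a median of 17.8 CPM over all tested genes. Of the 39, 34 lay above that median, and the lowest single count of any of them in any library was 149. Summed over the 39 genes, the level was 3583 ± 52.9 CPM in LTR8B IFNB and 3632 ± 27.9 CPM in LTR8B untreated libraries (SD, n = 4 each). The sum was 3596 ± 23.4 CPM in GFP IFNB and 3572 ± 54.2 CPM in GFP untreated libraries (SD, n = 2 each). The ranges of these sums overlapped between all groups.

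**Figure D1:**
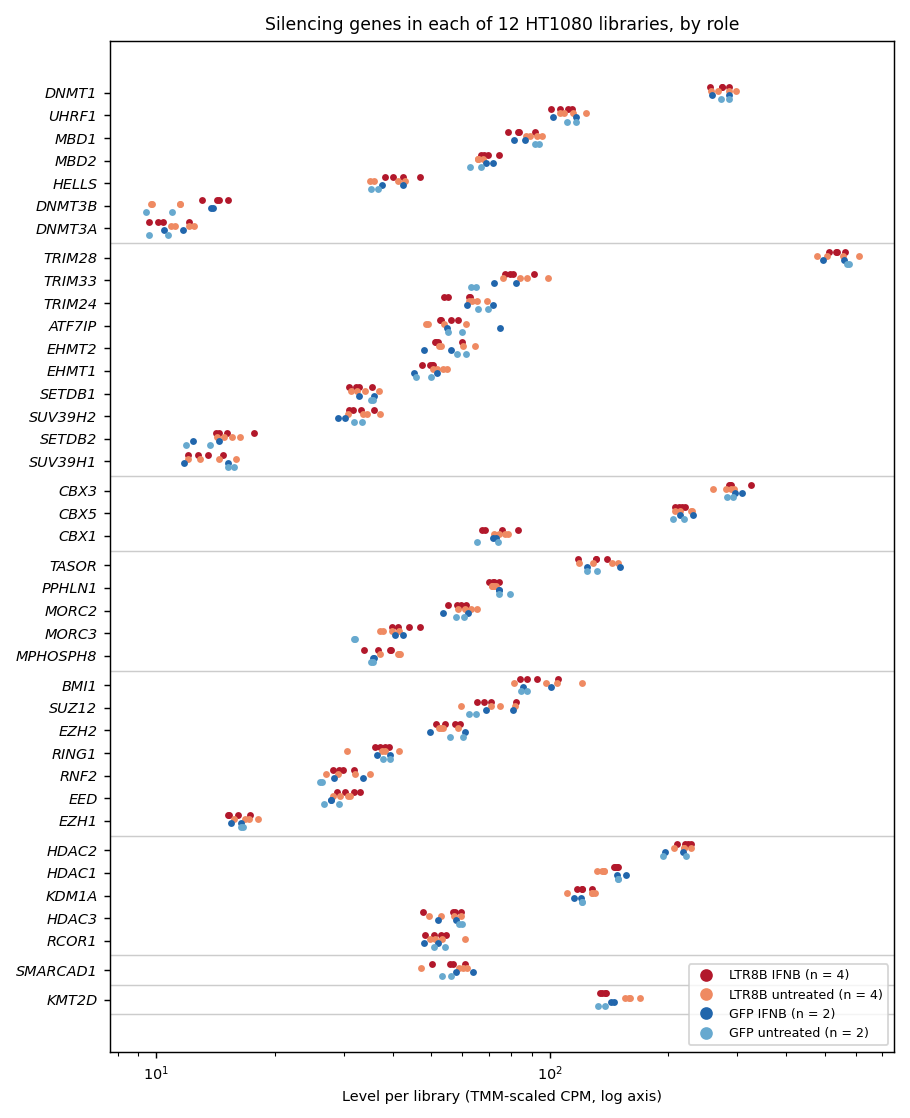
Level of each silencing gene in each of the 12 libraries (x axis, TMM-scaled CPM on a log axis), grouped by role between the grey lines and ordered by mean level. Points are single libraries and colours are the 4 groups; the genes differ from one another by up to 541.8 against 10.96 CPM, while the libraries of a gene lie close together.

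Levels can be compared between genes only per length, so CPM was divided by the length of each gene's joined exons in kilobases. On that scale TRIM28 led with 134 CPM per kb, followed by CBX3 with 62.7, HDAC1 with 36.5, DNMT1 with 28.1 and CBX1 with 23.8 CPM per kb. At the low end SETDB2 had 2.19 CPM per kb and DNMT3A 0.912 CPM per kb. The maintenance methyltransferase DNMT1 stood 31.1-fold above DNMT3A per kb in the median library, with a range of 25.9-fold to 35.1-fold, and 10.8-fold above DNMT3B. TRIM28, a scaffold, stood 28.8-fold above its partner enzyme SETDB1. Among pairs of related genes, EZH2 exceeded EZH1 by 5.27-fold, EHMT2 exceeded EHMT1 by 3.30-fold, CBX3 exceeded CBX5 by 4.33-fold, and SUV39H2 exceeded SUV39H1 by 2.29-fold, all medians over the 12 libraries of per-kb ratios. These orders held in each of the 12 libraries, as the lowest per-kb ratio in any library was 4.52 for the EZH pair, 3.09 for the EHMT pair, 4.06 for CBX3 over CBX5 and 1.80 for the SUV39H pair. The length joins all annotated exons, whether or not these cells use them, and is the same in every library. The ratios therefore depend on it. EHMT2 and EHMT1 were at 55.7 and 50.1 CPM, so most of their gap comes from lengths of 7.289 and 22.217 kb. CBX5 is also long, at 15.04 kb against 4.641 kb for CBX3.

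The first question was whether cells with the LTR8B guide, and so with little SP140, differ in these factors from cells with the GFP guide. No silencing gene passed edgeR's quasi-likelihood test at an adjusted p of 0.05 in untreated cells, with IFNB or averaged over the treatments, where 0.360%, 0.354% and 2.14% of all tested genes did. Counts at an unadjusted p under 0.05 were 7 of 39 in untreated cells, 1 of 39 with IFNB and 6 of 39 on average, beside 11.2%, 9.48% and 15.8% of all tested genes. DESeq2 called 2 silencing genes in untreated cells (TRIM33 and KMT2D), 0 with IFNB and 1 on average (TRIM33), against 0.971%, 0.732% and 3.38% of all genes it tested. With limma-voom the counts were 0, 0 and 0, against 0.390%, 0.329% and 2.19% of tested genes. The median log2 fold change over the 39 genes, LTR8B over GFP averaged over treatments, was 0.02, and that over all tested genes was 0.00. The intervals were narrow: averaged over treatments, the 95% confidence interval of the log2 fold change lay within ±0.5 for all 39 genes, compared with 70.8% of all tested genes. In untreated cells it did so for 37 of 39, and with IFNB for 39 of 39, so in these libraries a guide effect beyond 1.41-fold lay outside the interval for all but those 2 in untreated cells. The average over treatments counts same-numbered treated and untreated LTR8B libraries as separate, though they deviated together. Its intervals may therefore be too narrow and its p-values too small. The share of all tested genes is not matched for level, and 34 of the 39 lay above the median level. Within groups, the median SD as a percentage of the mean was 6.14 (LTR8B IFNB), 6.54 (LTR8B untreated), 7.11 (GFP IFNB) and 3.14 (GFP untreated). For the 9218 tested genes in the same range of levels it was 6.03, 7.62, 6.26 and 3.71, so the silencing genes were not steadier throughout.

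The second question was how IFNB acts on these factors. In LTR8B cells DNMT3B rose and KMT2D fell, and in GFP cells MORC3 rose. That is 2 of 39 in LTR8B cells, where 4.50% of tested genes passed (4.01% higher, 0.482% lower), and 1 of 39 in GFP cells, where 3.20% passed (3.06% higher, 0.134% lower). Counts at an unadjusted p under 0.05 were 4 of 39 in LTR8B cells, beside 12.9% of all tested genes, and 3 of 39 in GFP cells, beside 11.3%. The share of the 39 genes called was 5.13% in LTR8B cells and 2.56% in GFP cells, near the share of all genes. DESeq2 and limma-voom called the same 2 genes in LTR8B cells, against 5.00% and 4.35% of all genes they tested, and the same 1 gene in GFP cells, against 3.66% and 3.25%. The median log2 fold change over the 39 was -0.03 in LTR8B cells and 0.01 in GFP cells, and over all tested genes it was -0.01 in LTR8B cells and -0.01 in GFP cells.

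The third question was whether the response to IFNB differs between the lines. By the interaction of guide and IFNB no silencing gene passed, and 0% of all tested genes did, with edgeR, DESeq2 (0%) and limma-voom (0%) alike. At an unadjusted p under 0.05 the interaction held 2 of 39, KMT2D and TRIM33, beside 2.98% of all tested genes. The smallest edgeR adjusted p among the 39 was 0.996.

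**Figure D2:**
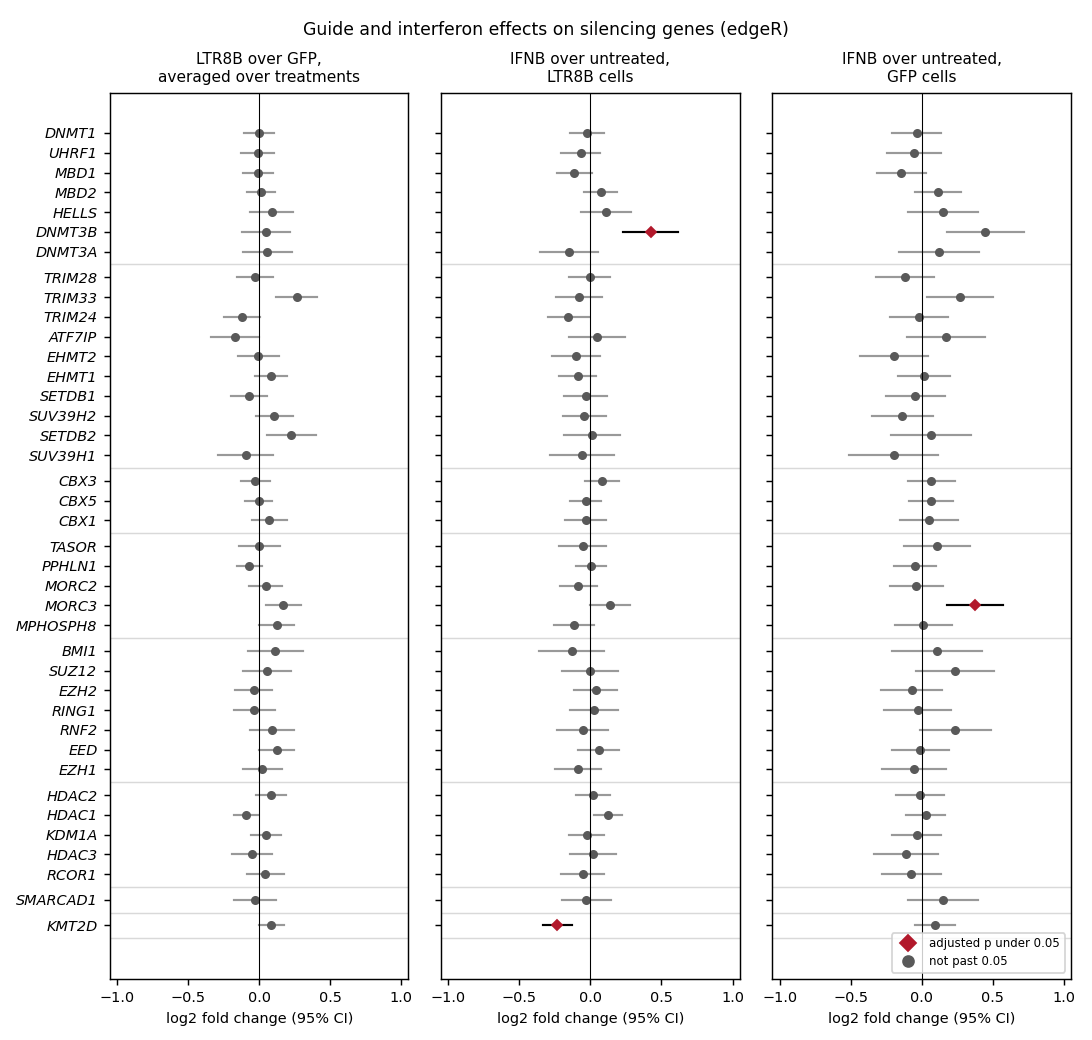
Log2 fold changes of the 39 silencing genes with 95% confidence intervals (x axis) for LTR8B over GFP averaged over treatments, for IFNB over untreated in LTR8B cells and for IFNB over untreated in GFP cells, from edgeR. Red diamonds pass an adjusted p of 0.05 and grey points do not; DNMT3B and KMT2D stand out in the middle panel and MORC3 in the right one.

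DNA methyltransferases and their partners came first by role. DNMT3B (ENSG00000088305.18, hg38 chromosome 20, 32762385 to 32809356, plus strand), which methylates new sites, was at 14.4, 14.2, 15.2 and 13.1 CPM in LTR8B IFNB libraries, against 11.5, 11.5, 9.71 and 9.77 CPM in LTR8B untreated libraries. In GFP cells it was at 13.9 and 13.8 CPM with IFNB, against 9.41 and 11.0 CPM untreated. In either line every treated library lay above every untreated one. Treated and untreated libraries did not overlap, in either direction, for 9.12% of all tested genes in LTR8B cells and 44.5% in GFP cells. Of the 39 silencing genes, 10 lay fully above and 8 fully below with IFNB in GFP cells. Between the lines, 19.6% of all tested genes did not overlap untreated and 19% with IFNB. IFNB changed DNMT3B by a log2 fold of 0.42 in LTR8B cells (SE 0.09, edgeR adjusted p = 0.00864). The value was higher in 4 of 4 same-numbered pairs of LTR8B libraries, which follows from groups that do not overlap and adds nothing. The IFNB comparison in GFP cells gave a log2 value of 0.45 with SE 0.13, which missed the threshold with 2 libraries a group (edgeR adjusted p = 0.0802). The interaction was -0.02 with a 95% confidence interval of -0.36 to 0.31, and the guide effect averaged over treatments was 0.05 (edgeR adjusted p = 0.831).

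Its relative DNMT3A, also an enzyme for new sites, was at 10.1, 10.4, 12.1 and 9.59 CPM in LTR8B IFNB libraries, against 10.9, 12.5, 11.2 and 12.1 CPM in LTR8B untreated libraries. In GFP cells DNMT3A was at 11.7 and 10.5 CPM with IFNB, against 10.7 and 9.61 CPM untreated. Treated and untreated libraries overlapped within either line. The LTR8B untreated libraries lay above the GFP untreated ones, where 19.6% of all tested genes did not overlap. For DNMT3A the IFNB log2 fold change was -0.15 in LTR8B cells (edgeR adjusted p = 0.593) and 0.12 in GFP cells (edgeR adjusted p = 0.765). DNMT1, which copies methylation at replication, was at 274, 285, 256 and 275 CPM in LTR8B IFNB libraries, against 285, 298, 258 and 268 CPM in LTR8B untreated libraries. In GFP cells DNMT1 was at 286 and 259 CPM with IFNB, against 285 and 273 CPM untreated. All 4 groups of DNMT1 overlapped, and its guide effect averaged over treatments had a 95% confidence interval within ±0.25. The other 4 genes of this role are UHRF1, which guides DNMT1 to half-methylated DNA, the methyl-CpG readers MBD1 and MBD2, and the remodeller HELLS. None of them passed in any contrast, and their IFNB log2 fold changes ran from -0.14 (MBD1) to 0.15 (HELLS) in GFP cells. HELLS shares its locus with TBC1D12 (23.4 CPM) on the same strand in GENCODE release 29, so reads may be split between them.

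Next is the TRIM28 axis. TRIM28 itself was at 536, 563, 536 and 513 CPM in LTR8B IFNB libraries, against 508, 611, 479 and 556 CPM in LTR8B untreated libraries. In GFP cells TRIM28 was at 559 and 495 CPM with IFNB, against 569 and 577 CPM untreated. The widest spread was among LTR8B untreated libraries, which enclosed all other groups. SETDB1, the H3K9 methyltransferase it recruits, was at 35.4, 32.1, 32.7 and 30.8 CPM in LTR8B IFNB libraries, against 36.8, 31.2, 32.3 and 33.9 CPM in LTR8B untreated libraries. In GFP cells SETDB1 was at 32.9 and 35.8 CPM with IFNB, against 35.7 and 35.1 CPM untreated. All 4 groups of SETDB1 overlapped, and its guide effect averaged over treatments was -0.07 (edgeR adjusted p = 0.611). CERS2 (192 CPM) overlaps SETDB1 on the other strand, and whether counting used the strand is not stated by the labels.

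TRIM33, a TRIM28 relative that binds modified histone tails and SMAD proteins, came nearest to a guide effect of the 39. It was at 79.2, 77.2, 80.6 and 91.0 CPM in LTR8B IFNB libraries and at 72.3 and 82.1 CPM in GFP IFNB libraries. Untreated, it was at 87.5, 76.1, 98.9 and 84.1 CPM in LTR8B libraries, against 65.0 and 63.1 CPM in GFP libraries. The untreated lines did not overlap, as for 19.6% of all tested genes, while the treated lines did. LTR8B over GFP, the log2 fold change was 0.44 in untreated cells (SE 0.10, edgeR adjusted p = 0.0691) and 0.26 averaged over treatments (SE 0.07, edgeR adjusted p = 0.0554), neither past the threshold. Without LTR8B untreated replicate 2 these became 0.50 (adjusted p = 0.0116) and 0.29 (adjusted p = 0.0146), and without LTR8B IFNB replicate 4 the value in untreated cells was 0.44 (adjusted p = 0.0374), all by edgeR. DESeq2 gave an adjusted p of 0.00529 in untreated cells and 0.0141 averaged over treatments, and edgeR without a low-count filter gave 0.000305 and 0.00133. Other settings moved TRIM33 away from the threshold: in untreated cells the edgeR adjusted p was 0.325 without GFP untreated replicate 1 and 0.762 without GFP untreated replicate 2, and averaged over treatments it was 0.138 and 0.255. Over the 17 alternatives the adjusted p ran from 0.000305 to 0.762 in untreated cells and from 0.00133 to 0.326 averaged. The other 7 genes of this role (TRIM24, SETDB2, the SETDB1 cofactor ATF7IP, and the H3K9 methyltransferases SUV39H1, SUV39H2, EHMT1 and EHMT2) passed in none of the contrasts. Of these, SETDB2 had a guide effect averaged over treatments of 0.23 (edgeR adjusted p = 0.175) and ATF7IP one of -0.17 (edgeR adjusted p = 0.308).

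The 3 HP1 proteins read H3K9 methylation. CBX3 was at 289, 288, 286 and 325 CPM in LTR8B IFNB libraries, against 289, 260, 295 and 280 CPM in LTR8B untreated libraries. In GFP cells CBX3 was at 295 and 309 CPM with IFNB, against 293 and 283 CPM untreated. LTR8B IFNB replicate 4 was the highest of all 12. CBX5 was at 213, 208, 217 and 221 CPM in LTR8B IFNB libraries, against 230, 208, 228 and 214 CPM in LTR8B untreated libraries. In GFP cells CBX5 was at 215 and 231 CPM with IFNB, against 219 and 206 CPM untreated. Those groups overlapped throughout. CBX1 was at 67.3, 75.7, 68.6 and 83.0 CPM in LTR8B IFNB libraries, against 74.4, 72.1, 77.0 and 78.2 CPM in LTR8B untreated libraries. In GFP cells CBX1 was at 73.0 and 71.7 CPM with IFNB, against 73.8 and 65.4 CPM untreated. None of the 3 passed in any contrast. CBX3 overlaps HNRNPA2B1 (969 CPM) on the other strand.

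In the group of HUSH and MORC proteins, MORC3 moved with IFNB. MORC3 (ENSG00000159256.13, hg38 chromosome 21, 36320189 to 36386148, plus strand) is an ATPase of nuclear bodies that silences endogenous retroviruses in mouse embryonic stem cells. It was at 40.4 and 42.5 CPM in GFP IFNB libraries, against 31.9 and 32.0 CPM in GFP untreated libraries. In LTR8B cells it was at 39.6, 43.9, 41.2 and 46.8 CPM with IFNB, against 39.8, 37.0, 37.6 and 41.5 CPM untreated. The GFP groups were apart, as for 44.5% of all tested genes, while the LTR8B groups overlapped. LTR8B untreated libraries already stood above the GFP untreated ones, and 19.6% of all tested genes did not overlap there. The IFNB log2 fold change was 0.14 in LTR8B cells (SE 0.07, edgeR adjusted p = 0.403) and 0.37 in GFP cells (SE 0.09, edgeR adjusted p = 0.0344). The interaction was -0.24 with a 95% confidence interval of -0.48 to 0.01 (edgeR adjusted p = 0.996), so a difference between the lines was not shown. The guide effect in untreated cells was 0.29 (edgeR adjusted p = 0.201).

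The MORC3 call in GFP cells rests on few libraries. Leaving out GFP IFNB replicate 1 gave an edgeR adjusted p of 0.0873, GFP IFNB replicate 2 one of 0.313, GFP untreated replicate 1 one of 0.257 and GFP untreated replicate 2 one of 0.246. Leaving out LTR8B untreated replicate 1 or LTR8B IFNB replicate 2 gave 0.0524 and 0.0570, and testing without a low-count filter gave 0.0569. The log2 fold change stayed between 0.34 and 0.41 for MORC3 over the 17 alternatives, with adjusted p from 0.0126 to 0.313. CHAF1B (32.1 CPM) overlaps MORC3 on the same strand in GENCODE release 29. The 4 other genes of this role did not pass in any contrast. They are MPHOSPH8, TASOR and PPHLN1, the subunits of HUSH, and MORC2, the ATPase that works with it. For these 4 the IFNB log2 fold change lay between -0.12 (MPHOSPH8) and 0.01 (PPHLN1) in LTR8B cells.

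Polycomb genes did not move past the threshold in any contrast. EZH2, the main H3K27 methyltransferase, was at 57.6, 59.4, 51.5 and 54.2 CPM in LTR8B IFNB libraries, against 53.0, 58.5, 52.2 and 53.7 CPM in LTR8B untreated libraries. In GFP cells EZH2 was at 60.8 and 49.6 CPM with IFNB, against 60.3 and 55.7 CPM untreated. These ranges overlapped. EED, the subunit that binds the H3K27 mark, had the smallest adjusted p of the 7 in the averaged guide effect. EED was at 31.8, 28.8, 30.3 and 33.0 CPM in LTR8B IFNB libraries, against 27.7 and 27.8 CPM in GFP IFNB libraries. Untreated, EED was at 31.0, 29.3, 28.1 and 30.7 CPM in LTR8B libraries, against 29.2 and 26.8 CPM in GFP libraries. The treated lines did not overlap, as for 19% of all tested genes, and the untreated ones did. The averaged guide effect was 0.12 (SE 0.06, edgeR adjusted p = 0.325). EZH1, SUZ12 and the PRC1 members RING1, RNF2 and BMI1 are the other 5. SUZ12 has a pseudogene at 6.08 CPM, which may share reads with it.

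Among deacetylases and corepressors, none of HDAC1, HDAC2, HDAC3, the H3K4 demethylase KDM1A or its partner RCOR1 passed. HDAC1 had the smallest adjusted p of these. It was at 146, 149, 146 and 148 CPM in LTR8B IFNB libraries, against 136, 137, 132 and 137 CPM in LTR8B untreated libraries. In GFP cells HDAC1 was at 156 and 148 CPM with IFNB, against 150 and 149 CPM untreated. LTR8B untreated libraries were the lowest group and did not overlap with any other. Of all tested genes, 19.6% did not overlap between the untreated lines and 9.12% did not between treated and untreated LTR8B libraries. The IFNB log2 fold change in LTR8B cells was 0.12 (SE 0.05, edgeR adjusted p = 0.220), and the guide effect in untreated cells was -0.14 (SE 0.06, edgeR adjusted p = 0.366). HDAC1 was higher with IFNB in 4 of 4 same-numbered LTR8B pairs, which follows from groups that do not overlap. Of the 39 silencing genes, 3 were higher in 4 of 4 such pairs (HDAC1, DNMT3B and MBD2) and 6 were lower (KMT2D, MBD1, TRIM24, EHMT1, EHMT2 and MPHOSPH8). The share of all tested genes with 4 of 4 pairs in the same direction was not counted. Agreement of the pairs, for these or for any single gene here, therefore has no background to be read against. SMARCAD1, a remodeller that helps silence endogenous retroviruses in mouse cells, was at 55.7, 50.3, 56.7 and 61.1 CPM in LTR8B IFNB libraries, against 60.1, 47.2, 61.6 and 59.0 CPM in LTR8B untreated libraries. In GFP cells SMARCAD1 was at 57.7 and 63.9 CPM with IFNB, against 53.2 and 56.3 CPM untreated. Its LTR8B libraries enclosed most of the GFP ones, and its IFNB log2 fold change was -0.03 in LTR8B cells (edgeR adjusted p = 0.954).

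KMT2D (ENSG00000167548.15, hg38 chromosome 12, 49018975 to 49059774, minus strand), the H3K4 methyltransferase of enhancers, fell with IFNB in LTR8B cells. It was at 136, 138, 139 and 134 CPM in LTR8B IFNB libraries, against 159, 169, 156 and 160 CPM in LTR8B untreated libraries. In GFP cells it was at 143 and 146 CPM with IFNB, against 138 and 133 CPM untreated. The LTR8B untreated libraries were the highest of the 12, and the LTR8B IFNB libraries overlapped the GFP untreated ones. Between the untreated lines 19.6% of all tested genes did not overlap, and between treated and untreated LTR8B libraries 9.12% did not. The IFNB log2 fold change was -0.23 in LTR8B cells (SE 0.05, edgeR adjusted p = 0.00502) and 0.09 in GFP cells (SE 0.07, edgeR adjusted p = 0.649). KMT2D was lower with IFNB in 4 of 4 same-numbered LTR8B pairs, which follows from groups that do not overlap. The interaction was -0.33 with a 95% confidence interval of -0.50 to -0.15, an unadjusted p of 0.00104 by edgeR and an adjusted p of 0.996. The guide effect was 0.25 in untreated cells (SE 0.06, edgeR adjusted p = 0.0883, DESeq2 adjusted p = 0.00272) and -0.08 with IFNB (edgeR adjusted p = 0.731). Of the 17 alternatives, only DESeq2 called KMT2D for the guide in untreated cells. Its log2 fold change there stayed between 0.22 and 0.28. The comparisons for the guide in untreated cells and for IFNB in LTR8B cells share the LTR8B untreated libraries.

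**Figure D3:**
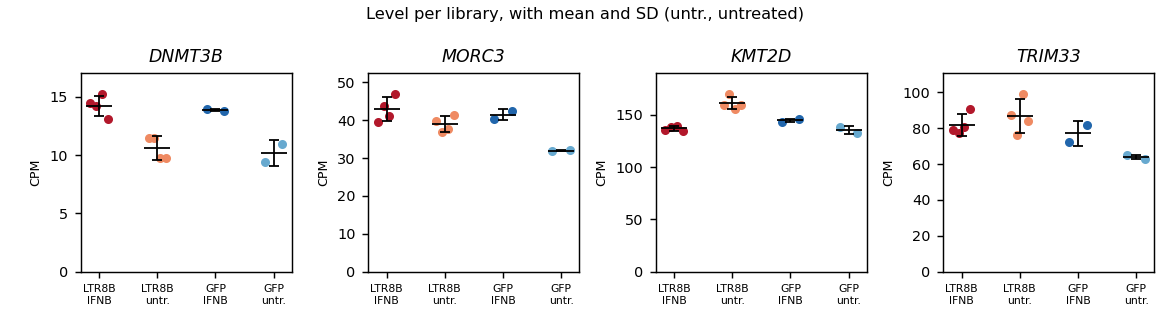
Level of DNMT3B, MORC3, KMT2D and TRIM33 in every library (y axis, TMM-scaled CPM from 0) by group, with the group mean and SD as black bars (n = 4, 4, 2 and 2). DNMT3B is higher with IFNB in either line, MORC3 and TRIM33 are lowest in GFP untreated libraries, and KMT2D is highest in LTR8B untreated libraries.

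Promoters were read for interferon-response motifs because IFNB moved some of these genes. Sequences are RefSeq windows of 300 bases on GRCh38.p14, 250 before and 50 after a gene's start. The motif searched was the core of the interferon-stimulated response element, GAAANNGAAA on either strand, and its matches are in capitals. MORC3 and, for comparison, ZBTB33 and the interferon-response gene IFIT1 are shown. Windows of PCGF5 and SMCHD1, which also rose with IFNB, are not given, so ZBTB33 does not stand for such genes.
MORC3 promoter, chr21:36319947-36320246, strand +: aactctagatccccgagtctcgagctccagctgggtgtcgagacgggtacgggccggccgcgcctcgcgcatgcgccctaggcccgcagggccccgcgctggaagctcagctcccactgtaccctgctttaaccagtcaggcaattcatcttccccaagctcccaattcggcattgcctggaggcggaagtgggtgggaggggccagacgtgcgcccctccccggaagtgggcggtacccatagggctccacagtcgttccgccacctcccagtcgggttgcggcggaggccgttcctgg
ZBTB33 promoter, chrX:120250562-120250861, strand +: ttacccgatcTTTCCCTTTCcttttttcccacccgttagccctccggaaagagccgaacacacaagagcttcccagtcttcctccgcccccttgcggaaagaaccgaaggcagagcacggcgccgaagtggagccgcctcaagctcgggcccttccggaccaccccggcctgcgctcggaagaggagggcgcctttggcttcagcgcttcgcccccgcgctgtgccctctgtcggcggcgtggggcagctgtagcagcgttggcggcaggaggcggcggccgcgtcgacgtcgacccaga
IFIT1 promoter, chr10:89392373-89392672, strand +: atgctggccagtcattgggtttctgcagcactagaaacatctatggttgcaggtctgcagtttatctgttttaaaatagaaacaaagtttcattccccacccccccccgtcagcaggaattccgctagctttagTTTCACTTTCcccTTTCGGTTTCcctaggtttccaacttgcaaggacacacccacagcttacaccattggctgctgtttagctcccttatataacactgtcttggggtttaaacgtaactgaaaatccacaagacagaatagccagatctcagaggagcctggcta
The MORC3 window held 0 matches. In ZBTB33, a methyl-CpG binding repressor described below, 1 match began 240 bases before the start, and in IFIT1 2 matches began 116 and 103 bases before it. Of 39 silencing genes, 37 had such a window, 61 windows in all, and 5 of these (8.2%), from ATF7IP and CBX5, held a match. The share was 3.57% of all 35116 windows and 3.02% of the 16533 windows of tested genes. A gene may have several windows that overlap. Counted by gene, a match was held by 2 of 37 silencing genes, 466 of 11407 tested genes and 1195 of all 27305 genes. Neither ATF7IP nor CBX5 passed the IFNB test in any line. For the interferon-response genes of the treatment check the share was 9 of 12 windows, and for genes higher with IFNB in LTR8B cells it was 14.5% of 809 windows. The KMT2D window held 0 matches and starts 1020 bases from the gene start in GENCODE release 29, and the DNMT3B window lies 17467 bases from it, so neither is shown. A second motif, the GAS core TTCNNNGAA, was in 6 of the 61 windows (9.84%, from 5 genes), beside 7.66% of all windows and 6.41% of windows of tested genes. A match is only a run of letters, not a bound site.

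Further genes of the same pathways were read from lists. Of 75 other silencing factors, 73 were tested, and 4 passed edgeR's test in at least 1 contrast. With IFNB, 2 of 73 rose in LTR8B cells (PCGF5 and ZBTB33) and 2 of 73 in GFP cells (PCGF5 and SMCHD1), and the median log2 fold changes over the 73 were -0.03 in LTR8B cells and -0.02 in GFP cells. Of all tested genes 4.50% passed in LTR8B cells and 3.20% in GFP cells. DESeq2 called PCGF5, SMCHD1 and ZBTB33 in both lines, beside 5.00% and 3.66% of all genes it tested. PCGF5, a subunit of a variant PRC1, was at 100, 102, 116 and 124 CPM in LTR8B IFNB libraries, against 74.0, 63.1, 91.8 and 71.5 CPM in LTR8B untreated libraries. In GFP cells PCGF5 was at 100 and 135 CPM with IFNB, against 61.7 and 61.7 CPM untreated. Treated and untreated libraries of PCGF5 did not overlap in either line. Taken line by line, that held for 9.12% of all tested genes in LTR8B cells and 44.5% in GFP cells. PCGF5 thus had a log2 fold change for IFNB of 0.55 in LTR8B cells (SE 0.12, edgeR adjusted p = 0.0135) and 0.93 in GFP cells (SE 0.17, edgeR adjusted p = 0.00491). Leaving out LTR8B IFNB replicate 4 gave an adjusted p of 0.0520 in LTR8B cells. In GFP cells, leaving out GFP IFNB replicate 2, GFP untreated replicate 1 or GFP untreated replicate 2 gave 0.0685, 0.0748 and 0.0553.

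SMCHD1, a structural protein of silent chromatin and of the inactive X chromosome, was at 127, 107, 120 and 138 CPM in LTR8B IFNB libraries, against 106, 74.9, 100 and 98.6 CPM in LTR8B untreated libraries. In GFP cells SMCHD1 was at 118 and 133 CPM with IFNB, against 86.4 and 78.2 CPM untreated. In either line the treated libraries lay above the untreated ones, where 9.12% of all tested genes did not overlap in LTR8B cells and 44.5% in GFP cells. For IFNB, SMCHD1 had a log2 fold change of 0.37 in LTR8B cells (SE 0.10, edgeR adjusted p = 0.0521) and 0.61 in GFP cells (SE 0.14, edgeR adjusted p = 0.0272). In GFP cells the adjusted p was 0.307 without GFP IFNB replicate 2, 0.108 without GFP untreated replicate 1 and 0.265 without GFP untreated replicate 2. ZBTB33 was at 59.5, 57.6, 69.7 and 66.7 CPM in LTR8B IFNB libraries, against 47.4, 35.9, 54.5 and 46.2 CPM in LTR8B untreated libraries. In GFP cells ZBTB33 was at 53.3 and 65.5 CPM with IFNB, against 40.5 and 40.0 CPM untreated. Again no treated library overlapped an untreated one of its line. ZBTB33 had an IFNB log2 fold change of 0.46 in LTR8B cells (SE 0.11, edgeR adjusted p = 0.0213) and 0.56 in GFP cells (SE 0.15, edgeR adjusted p = 0.0671). In LTR8B cells the adjusted p was 0.0773 without LTR8B IFNB replicate 3, 0.0744 without LTR8B IFNB replicate 4 and 0.0511 without LTR8B untreated replicate 1.

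NCOR1, a corepressor that carries HDAC3, was the 1 of 73 that passed edgeR's test for the guide averaged over treatments, beside 2.14% of all tested genes, and DESeq2 called 3 of 73 (NCOR1, HDAC7 and RESF1), beside 3.38%. It was at 133, 133, 126 and 129 CPM in LTR8B IFNB libraries, against 117 and 118 CPM in GFP IFNB libraries. Untreated, NCOR1 was at 140, 131, 134 and 144 CPM in LTR8B libraries, against 117 and 116 CPM in GFP libraries. The 8 LTR8B libraries all lay above the 4 GFP libraries, and the share of all tested genes that did so was not counted. With same-numbered LTR8B libraries counted as separate, the log2 fold change averaged over treatments was 0.19 (SE 0.04, edgeR adjusted p = 0.0241). The call was lost without any 1 of the 4 GFP libraries, with adjusted p from 0.0879 to 0.161, and without LTR8B IFNB replicate 2, with 0.0542. TTC19 (84.9 CPM) overlaps NCOR1 on the other strand.

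Of 23 histone demethylases and enzymes that oppose silencing, all were tested. By edgeR, 1 fell with IFNB in LTR8B cells (KMT2B) and 1 rose in GFP cells (KDM7A), beside 4.50% and 3.20% of all tested genes. DESeq2 called these and also KMT2A for IFNB in LTR8B cells, KDM7A for the guide in untreated cells and SETD1A for the averaged guide effect. In those 3 contrasts it called 5.00%, 0.971% and 3.38% of all genes it tested. KDM7A, a demethylase of H3K9 and H3K27, was at 12.8 and 14.9 CPM in GFP IFNB libraries, against 8.77 and 8.81 CPM in GFP untreated libraries. In LTR8B cells KDM7A was at 13.4, 12.9, 11.5 and 14.4 CPM with IFNB, against 12.7, 10.7, 12.5 and 14.1 CPM untreated. GFP untreated libraries were the lowest of the 4 groups. IFNB gave KDM7A a log2 fold change of 0.66 in GFP cells (SE 0.14, edgeR adjusted p = 0.0106) and 0.07 in LTR8B cells (SE 0.10, edgeR adjusted p = 0.894), with an interaction of -0.59 (edgeR adjusted p = 0.996). In GFP cells the adjusted p was 0.191 without GFP IFNB replicate 2, 0.120 without GFP untreated replicate 1 and 0.106 without GFP untreated replicate 2. KMT2B, an H3K4 methyltransferase, was at 53.9, 55.9, 55.1 and 53.0 CPM in LTR8B IFNB libraries, against 64.8, 73.9, 61.0 and 62.9 CPM in LTR8B untreated libraries. In GFP cells KMT2B was at 57.0 and 51.8 CPM with IFNB, against 61.3 and 64.3 CPM untreated. Treated KMT2B libraries were below untreated ones in either line, where 9.12% of all tested genes did not overlap in LTR8B cells and 44.5% in GFP cells. For KMT2B the IFNB log2 fold change was -0.27 in LTR8B cells (SE 0.07, edgeR adjusted p = 0.0211) and -0.20 in GFP cells (SE 0.09, edgeR adjusted p = 0.405). In LTR8B cells the adjusted p was 0.0678 without LTR8B IFNB replicate 1, 0.0550 without replicate 3, 0.0603 without replicate 4 and 0.0545 without LTR8B untreated replicate 2.

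**Figure D4:**
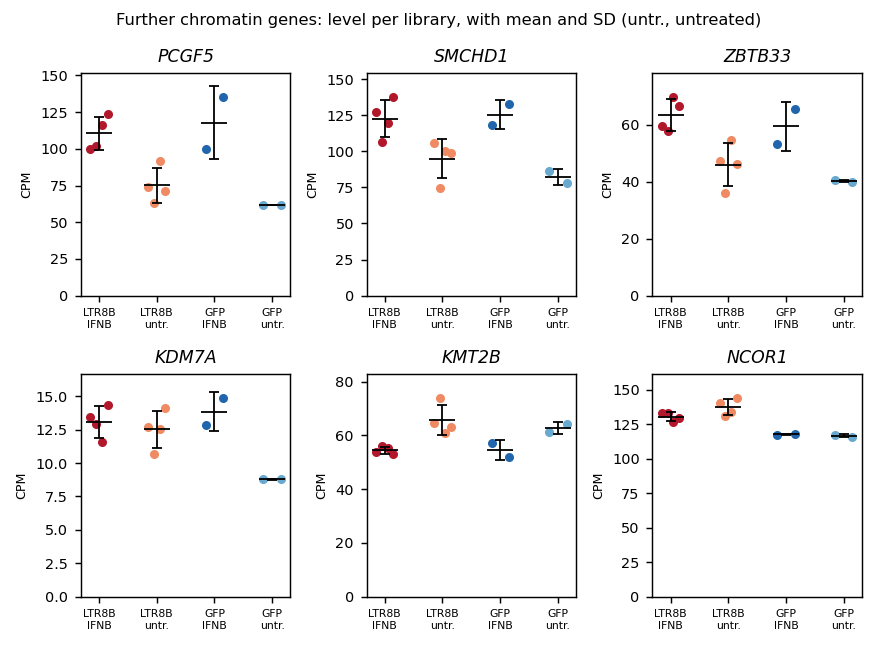
Level of 6 further chromatin genes in every library (y axis, TMM-scaled CPM from 0) by group, with the group mean and SD as black bars (n = 4, 4, 2 and 2). PCGF5, SMCHD1 and ZBTB33 are higher with IFNB in either line, KMT2B is lower, KDM7A is lowest in GFP untreated libraries, and NCOR1 is higher in LTR8B than in GFP libraries.

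Genes on which these complexes are known to act were also read. Of 25 genes derived from retroelements or endogenous retroviruses, 15 were tested and none passed edgeR's test in any of the 6 contrasts. At an unadjusted p under 0.05 by edgeR, 3 of 15 did so for the averaged guide effect, 2 for IFNB in LTR8B cells and 2 for IFNB in GFP cells, beside 15.8%, 12.9% and 11.3% of all tested genes. DESeq2 called 2 for the averaged guide effect (ESRG and RTL6) and 1 for IFNB in LTR8B cells (RTL10), beside 3.38% and 5.00% of all genes it tested, while limma-voom called 0 in every contrast. PEG10, a domesticated retrotransposon gene, was the highest at 188 to 216 CPM over the 12 libraries, and ERVK3-1 was at 59.2 to 69.1 CPM. Of the 25, 12 stayed below 1 CPM in every library, and all of these but ARC and L1TD1 had too few counts to be tested. The counts are per annotated gene, and single copies of LTR8B or other repeats were not analysed here. Of 32 germline and cancer-testis genes, whose silence in body tissues rests on DNA methylation, 14 were tested and 18 stayed below 1 CPM in every library. HT1080 nevertheless expressed 12 of the 32 at a mean of 10 CPM or more, such as CTAG2 at 130 to 180 CPM and MAGEB2 at 129 to 144 CPM. MAGEA3 at 123 to 133 CPM and MAGEA6 at 116 to 131 CPM are close copies that may share reads.

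MAGEC1, a cancer-testis antigen on chromosome X, was the 1 of 14 tested germline genes past the threshold, lower in LTR8B cells. It passed for the guide averaged over treatments, beside 2.14% of all tested genes. It was at 12.9, 13.8, 14.7 and 16.4 CPM in LTR8B IFNB libraries, against 16.8 and 19.5 CPM in GFP IFNB libraries. Untreated, MAGEC1 was at 13.8, 14.1, 13.5 and 15.8 CPM in LTR8B libraries, against 19.6 and 18.3 CPM in GFP libraries. No LTR8B library reached a GFP one, and the share of all tested genes so separated was not counted. With same-numbered LTR8B libraries counted as separate, the log2 fold change averaged over treatments was -0.37 (SE 0.08, edgeR adjusted p = 0.0171). The adjusted p was 0.119 without GFP IFNB replicate 2, 0.0917 without GFP untreated replicate 1 and 0.0741 without GFP untreated replicate 2. The median over the 14 tested germline genes in that contrast was -0.07, beside 0.00 over all tested genes.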

How the data were processed

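RNA-seq counts of 12 HT1080 libraries were analysed. The authors deposited a table of whole-number counts per gene; per the submitters' processing notes Salmon 0.13.1, DESeq2 1.38.3 and hg38 were used, in roles not given in the sources used here, as is the annotation release. A second deposited table holds the same counts divided by 1 factor per library and was not used. Names were matched for 60370 of 60669 identifiers, and 58437 had a GENCODE release 29 position.

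Low genes were removed with filterByExpr over the 4 groups (minimum count 10, minimum total 15), and the rest were scaled by TMM and fitted with edgeR 4.0.16 in R 4.3.3, as a quasi-likelihood model with robust dispersion and 1 mean per group over all 12 libraries. Adjusted p means Benjamini-Hochberg over 16393 genes, at a threshold of 0.05. SE and intervals are for the log2 fold change. Counts of 3 in a library, the limit that 0 allows, are 0.100 to 0.244 CPM, counting error only. Alternatives were RLE scaling, no low-count filter, DESeq2 1.42.0, limma-voom (limma 3.58.1), a replicate block and leaving out each library. Python 3.11.15, pandas 2.3.3 and matplotlib 3.10.9 made summaries and figures.

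Same-numbered LTR8B treated and untreated libraries deviated together (correlations of 0.116 to 0.578 over 4 pairs), against -0.489 to 0.201 for differently numbered ones. Replicate 3 was unclear: treated replicate 3 had 0.142 with untreated replicate 2 and 0.116 with its own number. The numbers, which come from the labels, were taken to pair these libraries. The main model leaves the pairing out, so p-values and intervals of the guide effect averaged over treatments may be too small. The replicate block holds the pairing within lines for IFNB and the interaction. For guide effects it gives each number 1 shift over both lines instead, which does not mend this. Replicates differed by more than counting noise (chi-square per degree of freedom 2.74 to 17.4). Members and lists were chosen with earlier results of these data known. Values per library are given for members past the threshold, the best member of each other role, HP1 genes, DNA methyltransferases, TRIM28, SETDB1 and EZH2, and list genes are named where they passed.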

Additional observations from a re-analysis of the deposited data

Results flagged for a closer look

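CBX3 stood out in 1 library: LTR8B IFNB replicate 4 was at 325 CPM, while the other 3 libraries of that group lay between 286 and 289 CPM. The gap was 0.929 of the group's range, above Dixon's critical value for 4 samples. It was the only such case in 30 groups of 4 checked. Chance gives about 1 such case in every 20 groups, so 1 in 30 is no more than chance gives.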

How the results depend on the processing

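DNMT3B and KMT2D kept their IFNB call in LTR8B cells under all 17 alternatives, and the log2 fold changes recomputed for single genes kept their sign. Medians over the 39 genes lie near 0, and some changed sign: for IFNB in GFP cells 0.0128 became -0.0105 without GFP untreated replicate 2 and -0.00582 without the filter, for the guide with IFNB 0.00382 became -0.0166 without LTR8B IFNB replicate 2, and for the interaction -0.034 became 0.00339 without GFP untreated replicate 2. In the guide effect of untreated cells the genes called were 59, but 325 without the filter and 159 with DESeq2, and 22 to 94 when 1 library was left out; of the 39 silencing genes 0 were called, but 1 without the filter, 2 with DESeq2 and 0 to 1 with 1 library out. With IFNB the guide gave 58 genes, but 260 without the filter, 120 with DESeq2 and 21 to 69 with 1 library out, and 0 to 0 silencing genes. On average it gave 351, but 775 without the filter, 554 with DESeq2, 181 with the replicate block and 93 to 461 with 1 library out; silencing genes were 0, but 1 without the filter, 1 with DESeq2 and 0 to 1 with 1 library out. IFNB called 524 genes in GFP cells (344 to 594 with 1 library out), and of the silencing genes 1, but 0 without the filter, 2 with the replicate block (DNMT3B, adjusted p = 0.0458, joins MORC3) and 0 to 1 with 1 library out. In LTR8B cells it called 737 (602 to 738), with 2 to 2 silencing genes. The interaction called 0, but 13 without the filter, 4 with the replicate block and 0 to 1 with 1 library out; silencing genes were 0 to 0. The cause of these changes was not tested. In the paired LTR8B libraries the replicate block called 1040 genes and the same 2 silencing genes. NCOR1 lost its guide call with the replicate block (edgeR adjusted p = 0.0726), and no other edgeR call named here was lost with it. Among the 39 genes the block added only DNMT3B in GFP cells. Its results for list genes that missed the threshold, such as SMCHD1 in LTR8B cells and ZBTB33 in GFP cells, are not given. The GFP libraries make only 2 numbered pairs. Their correlation of 0.241 is above the 0.116 taken as a pair in LTR8B cells, so whether they are paired is not settled. Across guides same-numbered libraries had correlations of -0.0892 to -0.0535 untreated and -0.442 to 0.00153 with IFNB, so across guides the numbers pair nothing. With 2 libraries a group in GFP cells, 34 of 39 IFNB intervals lay within ±0.5 on the log2 scale, against 38 of 39 in LTR8B cells.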
